A study of Mus musculus with 15 samples.

Results

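The 10 genes described here set or mark the epithelial or mesenchymal state of a cell. They were chosen by name, with earlier results of these data known, and matched by symbol. All 10 were found among the 21886 genes of a deposited table of RPKM values (reads scaled by gene length and by the library's total). All were also found among the 14301 genes of a deposited table of read counts. The cells were mouse prostate epithelial cells grown as organoids, from C57BL/6 mice, and were profiled by RNA sequencing in 12 libraries of a series of 15 samples. The RPKM table held 4 groups of 2 libraries from 3-month-old mice, which were null for both Setd2 and Ezh2 (double null), null for Ezh2, null for Setd2, or controls with both genes. Each of these libraries was made from RNA pooled over 3 biological replicates. The count table held 2 groups of 2 libraries from 2-month-old mice, one with the Ezh2 K735R allele and one with wild-type Ezh2. K735R is named for a lysine-to-arginine change in the protein. The 4 groups of the RPKM table shared a further alteration, controls included, and the 2 groups of the count table shared another form of it, so values were compared only within a table. Which cells the conditional deletions act in is not given in the sources used here beyond the label of prostate epithelial cells.

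Epithelial cells hold each other through E-cadherin (Cdh1) and carry the adhesion protein Epcam, while mesenchymal cells use N-cadherin (Cdh2) and fill their cytoskeleton with vimentin (Vim). The switch between these states is driven by DNA-binding repressors of epithelial genes, among them Zeb1, Zeb2 and Snai2 (Slug), and is opposed by Ovol1, Grhl2 and the splicing regulator Esrp1. Snai2 is also a gene of normal basal epithelial cells. Ezh2 is the catalytic subunit of the Polycomb complex that methylates lysine 27 of histone H3, a mark of repressed genes, and Setd2 is the enzyme that trimethylates lysine 36 of the same histone. The comparisons asked how each of the state genes stood when Ezh2, Setd2 or both were lost, and when Ezh2 carried K735R.

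Promoter windows of 300 bases, from 250 before to 50 after the annotated start, were at hand for 3 members (Epcam, Vim and Zeb2) from RefSeq on GRCm38.p6. The windows of Epcam and Vim are printed because these were the members with the widest range of RNA levels across the RPKM table. Both lie on the plus strand, Epcam at chr17:87635729-87636028 and Vim at chr2:13574061-13574360. Capitals mark matches to CACCTG, the E-box bound by Zeb and Snai factors, or to its reverse complement CAGGTG.
Epcam: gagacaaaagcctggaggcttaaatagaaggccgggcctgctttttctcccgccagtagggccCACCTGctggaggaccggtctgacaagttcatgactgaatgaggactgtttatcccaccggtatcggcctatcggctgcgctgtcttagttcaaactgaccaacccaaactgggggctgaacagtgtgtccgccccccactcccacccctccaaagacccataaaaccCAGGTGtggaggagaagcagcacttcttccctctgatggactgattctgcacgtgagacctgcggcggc
Vim: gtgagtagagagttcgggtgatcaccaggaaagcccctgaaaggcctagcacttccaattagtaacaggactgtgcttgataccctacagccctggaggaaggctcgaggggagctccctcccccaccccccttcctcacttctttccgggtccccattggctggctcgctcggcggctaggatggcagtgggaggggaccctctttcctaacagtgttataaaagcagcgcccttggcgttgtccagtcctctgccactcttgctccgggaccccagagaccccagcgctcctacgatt
The Epcam window held 2 matches, beginning 187 and 19 bases before the start, the nearer one on the opposite strand. The Vim window held 0 and so did the 4 windows of Zeb2, and 20.2% of all 32851 mouse windows held at least 1. Neither AACCGGTT, bound by grainyhead-like factors and present in 0.146% of all windows, nor CCGTTA, bound by Ovol factors and present in 2.76%, occurred in the Epcam or Vim window on either strand. These matches describe the letters alone.

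Reads on listed genes, recovered from the steps of the RPKM values, came to 29636119 to 54111444 per library, and the counts to 28831228 to 37482322. Ezh2-deleted libraries were deeper (46830867 reads or more) than the other libraries of that table (34815302 reads or fewer). Setd2 RNA had 8.99 and 7.54 RPKM in double null, 14.6 and 11.6 in Ezh2 null, 8.75 and 10.3 in Setd2 null and 17.0 and 16.1 in control organoids, and Ezh2 RNA had 16.6 and 14.2 RPKM in double null, 13.8 and 11.6 in Ezh2 null, 24.2 and 20.7 in Setd2 null and 19.4 and 20.9 in control organoids. Both deleted genes thus still gave RNA over the gene as a whole, and which exons were removed is not given in the sources used here. Keratins and Trp63 were present in every library. The 4 basal markers summed to 4840 to 5620 RPKM in double null, 3510 to 4350 in Ezh2 null, 1750 to 2240 in Setd2 null and 1800 to 1870 in control organoids. The 10 stromal markers summed to 29.3 to 33.9 RPKM in double null, 32.8 to 34.5 in Ezh2 null, 7.60 to 12.7 in Setd2 null and 8.75 to 10.6 in control organoids, with Lum and Des at 0 in Setd2 null and control libraries. The 6 luminal markers summed to 1390 to 1450 RPKM in double null, 1500 to 1650 in Ezh2 null, 1830 to 2360 in Setd2 null and 1770 to 1890 in control organoids, with Pbsn at 0 in Setd2 null and control libraries. The 8 seminal vesicle and urothelium markers summed to 81.6 to 93.3 RPKM in double null, 105 to 110 in Ezh2 null, 29.8 to 36.0 in Setd2 null and 27.7 to 29.1 in control organoids. Pate4 of this list had 49.4 and 33.4 RPKM in double null, 39.3 and 29.5 in Ezh2 null, 0 and 0 in Setd2 null and 0 and 0.0323 in control libraries, and Svs4 was at 0 in all Setd2 null and control libraries. The 7 immune markers summed to 13.7 to 14.9 RPKM in double null, 13.2 to 14.0 in Ezh2 null, 33.2 to 39.6 in Setd2 null and 21.8 to 24.6 in control organoids, where Cd68 made up nearly all of the Setd2 null and control sums. The macrophage genes Lyz2 (2.67 and 3.02 RPKM in double null, 7.69 and 8.20 in Ezh2 null) and Adgre1 (0.331 and 0.258 in double null, 0.921 and 1.15 in Ezh2 null) were at 0 in Setd2 null and control libraries, as was the leukocyte gene Ptprc, which reached at most 0.0582 RPKM in Ezh2-deleted ones. Stromal, luminal, seminal vesicle and immune markers thus all moved with the deletion of Ezh2. Summed endothelial markers reached at most 3.18 RPKM in any library and neuroendocrine markers at most 7.30 RPKM. In such bulk samples fewer cells of a type and less RNA per cell cannot be told apart, and the part of these markers in the results below was not tested.

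Vim was the member that varied most. It had 1.66 and 1.58 RPKM in double null, 3.90 and 4.22 in Ezh2 null, 58.3 and 55.6 in Setd2 null and 83.3 and 74.7 in control organoids. The 4 Ezh2-deleted libraries all lay below the other 4, and no pair of groups overlapped. Ranked from the highest RPKM among all listed genes, Vim stood at 10567 to 10710 in double null, 8595 to 9045 in Ezh2 null, 1084 to 1098 in Setd2 null and 699 to 788 in control libraries.

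Cdh1 stayed abundant in all 8 libraries, at ranks 97 to 176 of 21886. Its levels were 325.0 and 351.8 RPKM in double null, 314.6 and 342.9 in Ezh2 null, 389.0 and 477.2 in Setd2 null and 454.7 and 480.2 in control organoids. The Ezh2-deleted libraries were again the lowest, by a narrower margin, and the Setd2 null and control libraries overlapped. Cdh2 was close to undetected, with 6 and 8 reads in double null, 23 and 3 in Ezh2 null, 1 and 1 in Setd2 null and 4 and 0 in control libraries, so E-cadherin RNA was the prevailing RNA of this pair in every group.

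Epcam was lower where Ezh2 was deleted, as Vim was, although one marks epithelial and the other mesenchymal cells. It had 326.2 and 329.9 RPKM in double null, 306.4 and 291.4 in Ezh2 null, 1174 and 1225 in Setd2 null and 1048 and 1047 in control organoids. The Ezh2-deleted and other libraries lay far apart, and Epcam ranked between 175 and 198 in Ezh2-deleted libraries, against 13 to 22 in the others. The RPKM of Epcam over that of Cdh1 was 1.0 and 0.938 in double null, 0.974 and 0.850 in Ezh2 null, 3.02 and 2.57 in Setd2 null and 2.31 and 2.18 in control libraries. Because Vim was lower by a larger factor, the RPKM of Epcam over that of Vim was 197 and 209 in double null, 69.1 to 78.5 in Ezh2 null, 20.1 to 22.0 in Setd2 null and 12.6 to 14.0 in control libraries.

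**Figure D1:**
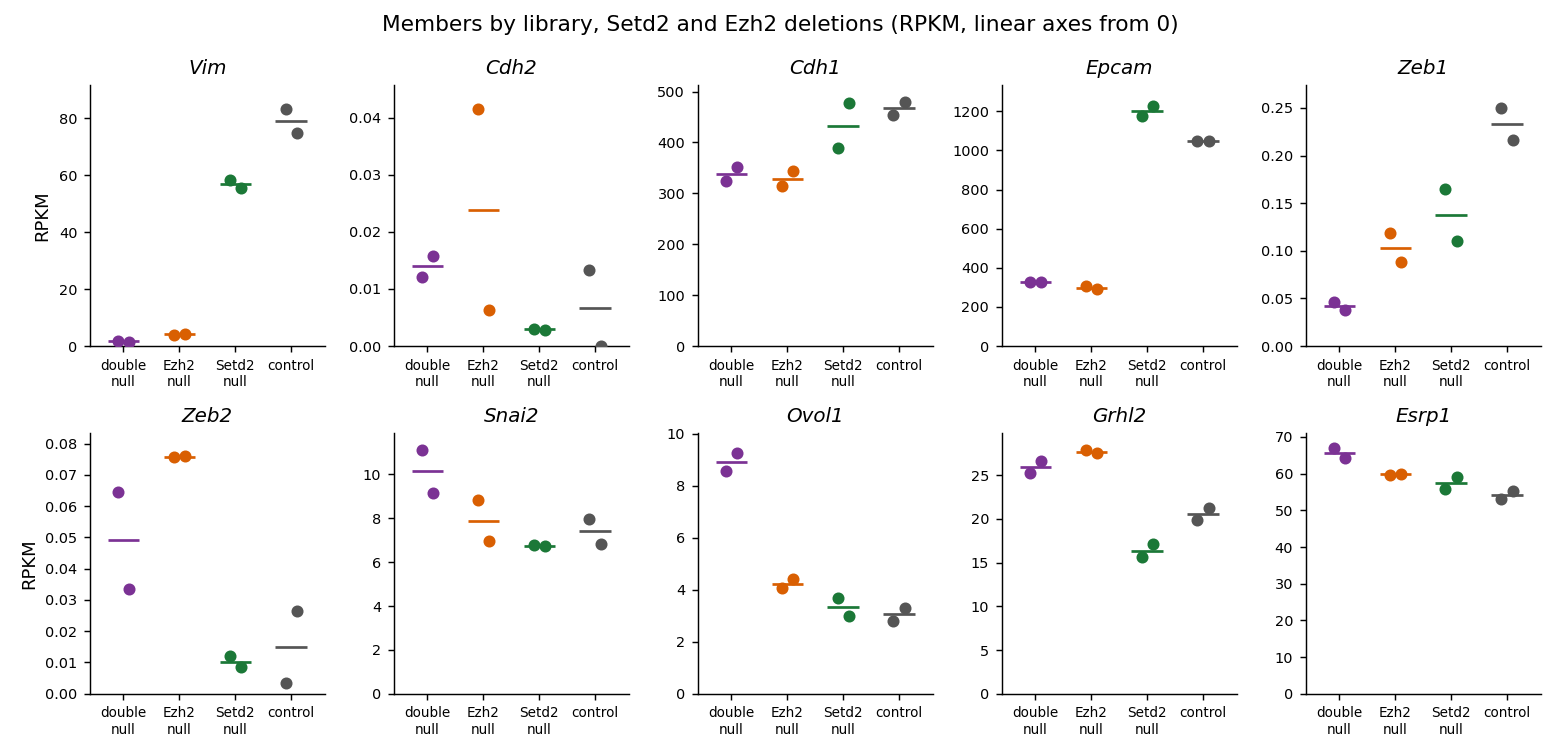
RPKM of each member (vertical axes, linear from 0) in the 2 libraries (points) and their mean (line) of double null, Ezh2 null, Setd2 null and control organoids. Vim lies at 1.58 to 4.22 RPKM and Epcam at 291.4 to 329.9 RPKM in the Ezh2-deleted libraries, below all others, while Ovol1 is highest in double null libraries.

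The repressors were scarce, apart from Snai2. Zeb1 gave 18 and 15 reads in double null, 52 and 33 in Ezh2 null, 43 and 31 in Setd2 null and 60 and 52 in control libraries, or 0.0374 to 0.250 RPKM. No RPKM of Zeb1 in a double null library reached that of any other library. Zeb2 gave 32 and 17 reads in double null, 42 and 36 in Ezh2 null, 4 and 3 in Setd2 null and 1 and 8 in control libraries, and its RPKM was higher in each Ezh2-deleted library than in any other. Snai2 had 11.1 and 9.17 RPKM in double null, 8.82 and 6.95 in Ezh2 null, 6.77 and 6.73 in Setd2 null and 7.98 and 6.85 in control organoids, with the double null libraries on top and the other 3 groups close together.

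Of the epithelial regulators, Ovol1, a zinc-finger repressor of mesenchymal genes, had the widest range. Its levels were 8.57 and 9.24 RPKM in double null, 4.07 and 4.41 in Ezh2 null, 3.70 and 2.99 in Setd2 null and 2.82 and 3.30 in control organoids. The double null libraries stood alone, and the Setd2 null and control libraries overlapped. Grhl2, a grainyhead-like activator of epithelial genes, had 25.2 and 26.6 RPKM in double null, 27.8 and 27.5 in Ezh2 null, 15.6 and 17.1 in Setd2 null and 19.9 and 21.2 in control organoids, higher in every Ezh2-deleted library than in any other. Esrp1, which imposes epithelial splice forms, had 67.1 and 64.2 RPKM in double null, 59.7 and 59.9 in Ezh2 null, 55.9 and 59.1 in Setd2 null and 53.0 and 55.4 in control organoids, a narrow spread in which no groups overlapped. Reads of Ovol1, Grhl2, Zeb1 and Zeb2 may include some of annotated genes that overlap them (the protein-coding Ap5b1 and pseudogene Gm31166 for Ovol1, the noncoding Gm16136, Gm10125 and Zeb2os for the others), since the use of strand in counting is not given in the sources used here.

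Loss of Ezh2 with Setd2 intact went with less Vim, Epcam and Cdh1 RNA. Relative to controls, Vim in Ezh2 null organoids fell 19.5-fold by mean RPKM, to 4.06 ± 0.223 RPKM, against 79.0 ± 6.06 RPKM in controls (SD, n = 2 libraries each). Epcam fell 3.51-fold, to 298.9 ± 10.6 RPKM in Ezh2 null, against 1048 ± 0.851 RPKM in control organoids (n = 2 each). On the log2(RPKM + 1) scale, limma gave differences of -3.98 ± 0.12 for Vim (SE, adjusted p = 1.73e-08), -1.81 ± 0.13 for Epcam (adjusted p = 2.94e-06) and -0.51 ± 0.15 for Cdh1 (adjusted p = 0.0150). Median-ratio scaling gave -4.14, -1.99 and -0.69 for these genes. The call of Cdh1 was lost without control library 1 (adjusted p = 0.0639), control library 2 (0.101) or Ezh2 null library 1 (0.0832).

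Grhl2 and Ovol1 were also called in this comparison, as higher in Ezh2 null organoids. Their differences were 0.41 ± 0.12 (limma, adjusted p = 0.0127) and 0.37 ± 0.14 (adjusted p = 0.0399). Neither call held when libraries were rescaled by the median ratio of their genes, which gave 0.23 for Grhl2 (adjusted p = 0.118) and 0.23 for Ovol1 (adjusted p = 0.183). Leaving out any 1 of the 4 libraries ended the call of Ovol1 (adjusted p of 0.0658 to 0.226), and that of Grhl2 was lost without control library 1 (0.10), Ezh2 null library 1 (0.0551) or 2 (0.0527). Snai2 (0.07, adjusted p = 0.692) and Esrp1 (0.14, adjusted p = 0.321) did not pass, and both values turned negative under median-ratio scaling (-0.09 and -0.04). So 5 of the 7 members tested were called, 2 higher and 3 lower, where 36.1% of all 11338 genes tested were called higher and 20.5% lower. Cdh2, Zeb1 and Zeb2 fell below the mean of 1 RPKM needed to enter the test. The median difference was 0.07 over the 7 members and 0.18 over all genes tested, and the median of all genes became 0.01 under median-ratio scaling.

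The Zeb genes could be tested on the recovered reads with edgeR. In Ezh2 null against control organoids Zeb1 fell (log2 difference -1.35, adjusted p = 0.0278), and Zeb2 had a difference of 2.16 that did not pass (adjusted p = 0.0551). In limma with no filter on low values both were called, Zeb1 as lower (adjusted p = 0.0093) and Zeb2 as higher (adjusted p = 0.0208). These 2 paralogous zinc-finger homeodomain repressors thus lay on opposite sides of the controls, at levels of at most 60 reads per library.

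Loss of Ezh2 in organoids that already lacked Setd2 gave the largest differences of Vim. Vim fell 35.2-fold, to 1.62 ± 0.0556 RPKM in double null, against 57.0 ± 1.87 RPKM in Setd2 null organoids (SD, n = 2 each), with a limma log2 difference of -4.47 ± 0.12 (adjusted p = 9.91e-09). Epcam fell 3.66-fold, to 328.1 ± 2.62 RPKM in double null, against 1199 ± 36.6 RPKM in Setd2 null organoids (-1.87 ± 0.13, adjusted p = 2.84e-06). Ovol1 rose 2.66-fold, to 8.91 ± 0.471 RPKM in double null, against 3.34 ± 0.505 RPKM in Setd2 null organoids (1.19 ± 0.14, adjusted p = 7.08e-05), and Grhl2 rose by 0.63 ± 0.12 on the log2 scale (adjusted p = 0.00133). These calls held under every alternative that tested the gene, with adjusted p of at most 5.12e-06 for Vim, 5.27e-05 for Epcam, 0.00113 for Ovol1 and 0.0134 for Grhl2.

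Snai2 was called higher as well, by 0.52 ± 0.15 (limma, adjusted p = 0.0152), but not under median-ratio scaling (0.35, adjusted p = 0.0685), nor without Setd2 null library 1 (adjusted p = 0.0531), 2 (0.0569) or double null library 1 (0.105). Cdh1 had a difference of -0.35 ± 0.15 that did not pass (adjusted p = 0.0700), although it did under median-ratio scaling (-0.54, adjusted p = 0.0150), without Setd2 null library 1 (-0.50, adjusted p = 0.0165), with a replicate block (-0.35, adjusted p = 0.027) and by edgeR on recovered reads (-0.54, adjusted p = 0.0135). Esrp1 had a difference of 0.19 (adjusted p = 0.192), which became -0.00083 under median-ratio scaling. Of 7 members tested, 3 were higher and 2 lower, with 35.6% and 19.4% of all genes tested called in those directions and medians of 0.19 and 0.18 over members and all genes. Median-ratio scaling moved the median of all genes to 0.01. On recovered reads Zeb1 fell (edgeR, -1.90, adjusted p = 0.0075) and Zeb2 had 2.04 (adjusted p = 0.0779). This comparison and that of Ezh2 null with control organoids share no library. Deviations of same-numbered Ezh2 null and double null libraries nevertheless correlated at 0.933 across genes, against 0.105 to 0.358 between the other groups. These comparisons are therefore not shown to be independent of each other.

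**Figure D2:**
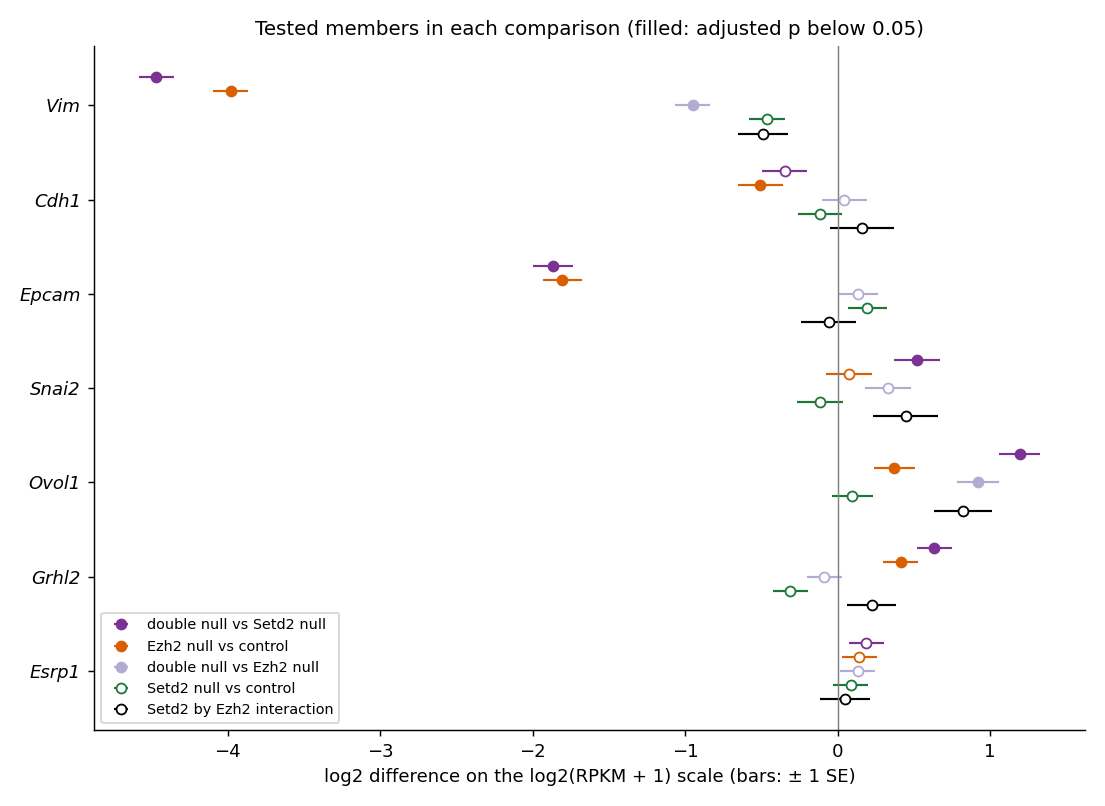
Log2 differences on the log2(RPKM + 1) scale (horizontal axis, bars ± 1 SE) of the 7 tested members in 5 comparisons, with filled points for adjusted p below 0.05. Vim reaches -4.47 and Epcam -1.87 in double null against Setd2 null organoids, and every point of the Setd2 null against control comparison is open.

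Loss of Setd2 with Ezh2 intact left no member past the threshold. The largest difference was that of Vim, -0.46 ± 0.12 (limma, adjusted p = 0.122), with 57.0 ± 1.87 RPKM in Setd2 null and 79.0 ± 6.06 RPKM in control organoids (n = 2 each). Grhl2 came next with -0.31 ± 0.12 (adjusted p = 0.319). Vim and Grhl2 were the 2 members of 7 with an unadjusted p under 0.05, and edgeR on recovered reads called 0 members, with Zeb1 at -0.74 (adjusted p = 0.581). Over all genes 0.379% were called higher and 0.688% lower, and the medians were -0.12 over members and -0.02 over all genes tested. A miss at this depth and n does not show that the levels were alike.

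Loss of Setd2 in organoids that already lacked Ezh2 moved Vim and Ovol1. Vim fell 2.51-fold, to 1.62 ± 0.0556 RPKM in double null, against 4.06 ± 0.223 RPKM in Ezh2 null organoids (SD, n = 2 each), a limma log2 difference of -0.95 ± 0.12 (adjusted p = 0.00107). Ovol1 rose 2.10-fold, to 8.91 ± 0.471 RPKM in double null, against 4.24 ± 0.242 RPKM in Ezh2 null organoids (0.92 ± 0.14, adjusted p = 0.00310). Both calls held under every alternative that tested the gene, with adjusted p of 0.000508 to 0.0218 for Vim and 0.00361 to 0.0260 for Ovol1. The other 5 tested members did not pass, with differences from -0.09 for Grhl2 to 0.33 for Snai2 (adjusted p = 0.330). Of all genes tested 3.79% were called higher and 2.70% lower, and the medians were 0.13 over members and -0.02 over all genes. Zeb1 and Zeb2 did not pass on recovered reads (edgeR, -1.28 and -0.61, adjusted p = 0.186 and 0.855).

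Whether the effect of losing one gene depended on the other was tested by the interaction term. It was positive where double null organoids were higher than the 2 single losses add up to on the log2 scale. No member passed in limma, and 2 of 7 had an unadjusted p under 0.05, Ovol1 at 0.82 ± 0.19 (adjusted p = 0.0611) and Vim at -0.49 ± 0.16 (adjusted p = 0.239). The adjusted p of Ovol1 ranged from 0.0479 to 0.291 over the alternatives, and the fit with a replicate block, which gave 0.0479, was the 1 that called it, and edgeR on recovered reads called 0 members. Of all genes 1.69% had a called positive and 0.900% a called negative interaction, with medians of 0.16 over members and -0.01 over all genes. The fall of Vim after Setd2 loss in Ezh2 null organoids is therefore not shown to differ from that with Ezh2 intact. The comparisons with Setd2 null and control libraries, and those with double null libraries, share samples, and their values stand side by side only.

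Related genes were followed in 6 lists of 89 genes, of which 62 were tested. The lists were chosen with earlier results of these data known. Their counts and medians beside those of all genes are therefore a description and not a separate test. With Ezh2 lost from organoids with Setd2, 10 of 13 tested mesenchymal state genes fell and 2 rose, with a median difference of -1.38 against 0.18 over all genes, of which 20.5% fell and 36.1% rose. On recovered reads, where genes of lower level also entered, 11 of 20 fell and 6 rose (edgeR). Fibronectin (Fn1) fell by 5.25 on the log2 scale (limma, adjusted p = 1.92e-07), with 14.4 and 17.1 RPKM in Ezh2 null and 627.1 and 642.4 in control organoids. The receptor kinase gene Axl had -2.37 (adjusted p = 4.73e-07). The matrix metalloproteinase gene Mmp2 went the other way, at 1.80 (adjusted p = 2.70e-05), with 2.80 and 4.61 RPKM in Ezh2 null and 0.412 and 0.246 in control organoids. Between double null and Setd2 null organoids 9 of these 13 fell and 3 rose (1 under quantile normalization, and 10 of 20 fell and 7 rose on recovered reads, with a median of -0.92 as deposited), Fn1 by -5.73 and Axl by -2.48 (adjusted p = 1.18e-07 and 4.00e-07). Mmp2 (0.83) was among those that rose, but not under quantile normalization (0.42, adjusted p = 0.129). Of all genes tested 19.4% fell and 35.6% rose between double null and Setd2 null organoids.

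Other epithelial transcription and splicing factors rose more often than they fell after Ezh2 loss, as did all genes tested (36.1% higher and 20.5% lower in Ezh2 null against control organoids). In Ezh2 null against control organoids 8 of 15 tested rose and 1 fell, with a median of 0.50, and under median-ratio scaling 6 rose and 2 fell, while on recovered reads 6 of 16 rose and 3 fell (edgeR). The ETS factor gene Elf5 rose by 2.15 (limma, adjusted p = 1.85e-06), Klf4, a factor of differentiating epithelium, by 1.55 (adjusted p = 0.000102), and Ovol2, the paralog of Ovol1, by 0.77 (adjusted p = 0.00116). In double null against Setd2 null organoids 10 of 15 rose and 1 fell (median 0.59, and 8 of 16 and 1 on recovered reads), led by Klf4 at 2.67 (adjusted p = 3.30e-06). Grhl3, a paralog of Grhl2, rose there by 1.10 on the log2 scale (adjusted p = 9.84e-05). Of all genes tested in that comparison 35.6% rose and 19.4% fell.

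Other mesenchymal transcription factors did not share a direction. For scale, 36.1% of all genes tested rose and 20.5% fell in Ezh2 null against control organoids. The shares were 35.6% and 19.4% in double null against Setd2 null organoids. In Ezh2 null against control organoids 2 of 10 tested rose and 1 fell (median 0.04, which was -0.14 with 2 higher and 2 lower under median-ratio scaling, and 3 of 16 rose and 4 fell on recovered reads). Hmga2, an architectural chromatin factor, fell by 2.75 on the log2 scale (limma, adjusted p = 1.93e-07), whereas Twist1, a basic helix-loop-helix inducer of the mesenchymal state, rose by 2.56 (adjusted p = 1.15e-05). Twist1 had 3.61 and 6.71 RPKM in Ezh2 null and 0 and 0.0202 in control organoids. Double null against Setd2 null organoids had 3 of 10 higher and 2 lower (3 and 5 of 16 on recovered reads), with -1.69 for Hmga2 (adjusted p = 4.62e-06) and 2.82 for Twist1 (adjusted p = 6.56e-06).

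Adhesion partners of Cdh1 and Epcam were mixed. Of 9 other cadherins and catenins 6 fell and 1 rose in Ezh2 null against control organoids (median -0.51, and 6 of 13 fell and 4 rose on recovered reads), among them P-cadherin (Cdh3, -1.16, limma adjusted p = 0.000203) and p120-catenin (Ctnnd1, -0.65, adjusted p = 0.00143). The gene that rose was Cdh16, kidney-specific cadherin, at 1.38 (adjusted p = 4.02e-05), with 2.06 and 1.31 RPKM in Ezh2 null and 0.0298 and 0.0198 in control organoids. Between double null and Setd2 null organoids 4 of 9 fell and 1, Cdh16, rose (2.37, adjusted p = 1.19e-06), and on recovered reads 5 of 13 fell and 4 rose. All genes tested were called lower at 20.5% and 19.4% and higher at 36.1% and 35.6% in these comparisons. Of 9 Epcam relatives and membrane partners, 2 rose and 2 fell in the first comparison and 2 rose and 1 fell in the second (medians 0.07 and 0.07, both below 0 under median-ratio scaling). The hyaluronan receptor gene Cd44, a partner of Epcam in the membrane, fell by 1.72 and 1.60 on the log2 scale (adjusted p = 5.50e-05 and 9.30e-05), and the tetraspanin gene Tspan8 rose by 1.18 and 0.61 (adjusted p = 4.27e-05 and 0.00259).

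Filament genes related to Vim did not all follow it. Nestin (Nes), another intermediate filament of mesenchymal and progenitor cells, fell by 2.33 in Ezh2 null against control organoids (limma, adjusted p = 4.56e-07) and by 2.37 in double null against Setd2 null organoids (adjusted p = 4.56e-07). Synemin (Synm) rose by 1.11 and 1.38 (adjusted p = 0.000194 and 5.26e-05). The simple-epithelial keratin gene Krt7 fell by 1.03 and 0.87 (adjusted p = 0.000935 and 0.00266), so that of 6 genes tested 1 rose in both comparisons while 3 fell in the first and 4 in the second (medians -0.36 and -0.75). On recovered reads 2 of 8 rose in both, while 3 and 5 fell. Among all genes tested, 36.1% and 35.6% were called higher and 20.5% and 19.4% lower in the first and second comparison.

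**Figure D3:**
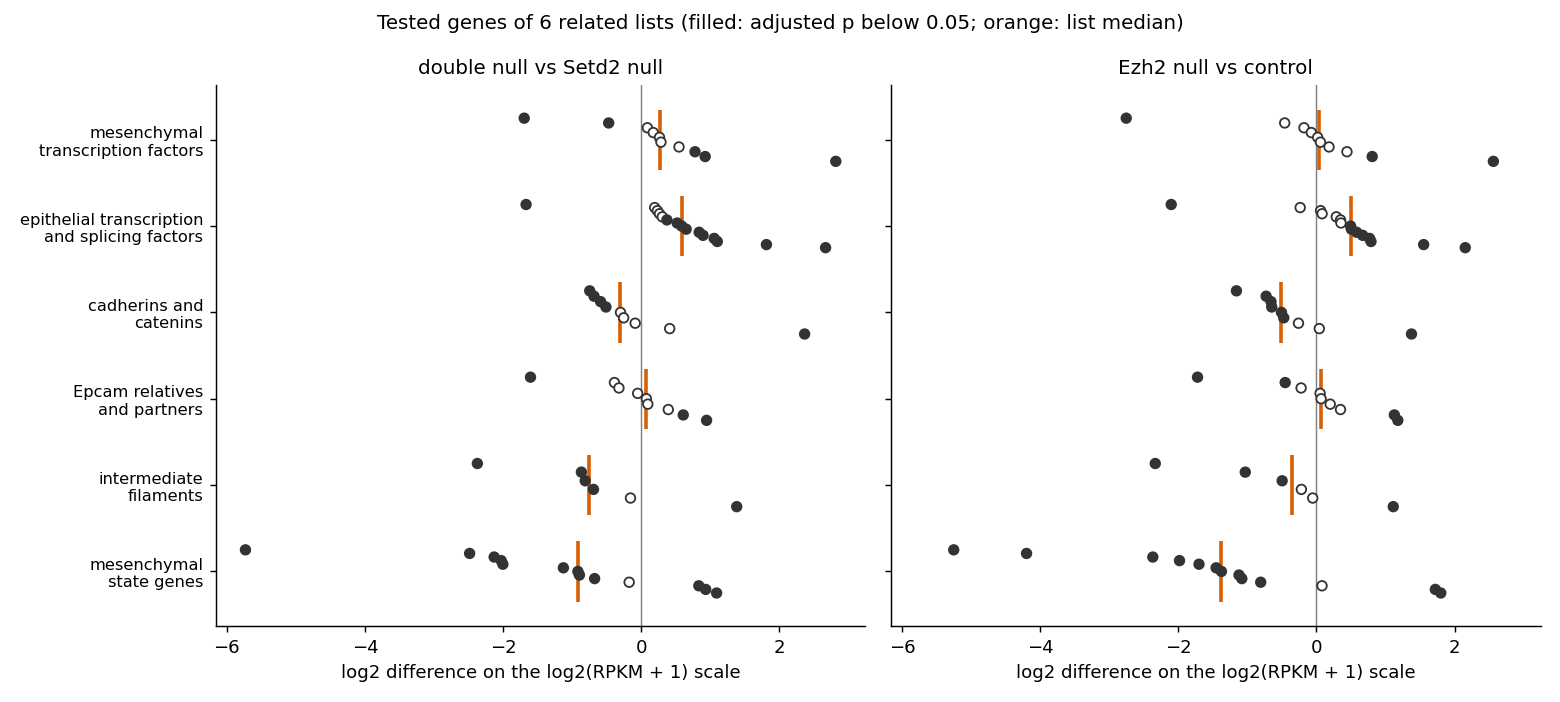
Log2 differences on the log2(RPKM + 1) scale (horizontal axis) of the tested genes of 6 lists (rows) in double null against Setd2 null (left) and Ezh2 null against control organoids (right), filled at adjusted p below 0.05, with list medians in orange. The medians of the mesenchymal state genes are -0.92 and -1.38 and those of the epithelial factors 0.59 and 0.50.

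Setd2 loss left fewer of these 62 genes called than Ezh2 loss did, as it did of all genes tested. Against controls 0 of 62 were called in Setd2 null organoids in limma (11 at an unadjusted p under 0.05, and 0 of 82 by edgeR on recovered reads). Only 0.379% of all genes tested were called higher and 0.688% lower there, so a count of 0 does not set these genes apart. In double null against Ezh2 null organoids 9 of 62 rose and 4 fell, where 3.79% of all genes tested rose and 2.70% fell. Grhl3 rose by 1.03 (limma, adjusted p = 0.00135), Klf4 by 1.13 (adjusted p = 0.00621) and the basal-cell factor Trp63 by 0.58 (adjusted p = 0.0135). Fn1 fell by 1.13 (adjusted p = 0.0222), which quantile normalization did not keep (adjusted p = 0.0876), Mmp2 by 0.95 (adjusted p = 0.0118) and Elf5 by 0.80 (adjusted p = 0.00914). The interaction term was called for 5 of the 62, all positive, among them Hmga2 (1.06), Tgfbi (1.01), Cdh16 (0.99) and Trp63 (0.76), with limma adjusted p of 0.0135, 0.0396, 0.0356 and 0.0392. Of all genes tested 1.69% had a called positive and 0.900% a called negative interaction. Tgfbi did not pass under quantile normalization (adjusted p = 0.103) or median-ratio scaling (0.0553). On recovered reads 3 of 82 list genes had a called interaction (edgeR), all positive. Of the cadherins and catenins 0 of 13 were called there, so the call of Cdh16 was not kept. Cdh16 had levels close to 0 without Ezh2 loss, at 0.0298 and 0.0198 RPKM in control and 0.00913 and 0 in Setd2 null libraries. The basal markers, Trp63 among them, were also highest in double null libraries, as given above.

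The genes closest in profile to Vim, Epcam and Ovol1, the members with a standard deviation of at least 0.5 over the 8 libraries, were found by the root mean square difference in log2(RPKM + 1) centred on each gene's mean, among genes averaging at least 5 RPKM. For Vim these were Vcam1, a cell adhesion receptor (0.315), Tm4sf1 (0.353) and the galectin gene Lgals1 (0.379). Vcam1 had 2.09 and 2.28 RPKM in double null, 8.43 and 7.67 in Ezh2 null, 78.9 and 89.2 in Setd2 null and 79.5 and 82.7 in control organoids. For Epcam they were the annexin gene Anxa5 (0.064), the cytokine gene Tnf (0.083) and Cpne8 (0.089), and Tnf had 6.65 and 6.71 RPKM in double null, 5.19 and 5.95 in Ezh2 null, 26.0 and 28.1 in Setd2 null and 23.8 and 25.1 in control organoids. For Ovol1 they were Grhl3 (0.131), Tmprss13 (0.145) and the desmoglein gene Dsg3 (0.146). Dsg3, of the cell junctions of stratified epithelium, had 43.9 and 42.1 RPKM in double null, 21.7 and 20.5 in Ezh2 null, 18.8 and 14.7 in Setd2 null and 14.2 and 13.1 in control organoids. These likenesses rest on 8 libraries in 4 groups and are a description.

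**Figure D4:**
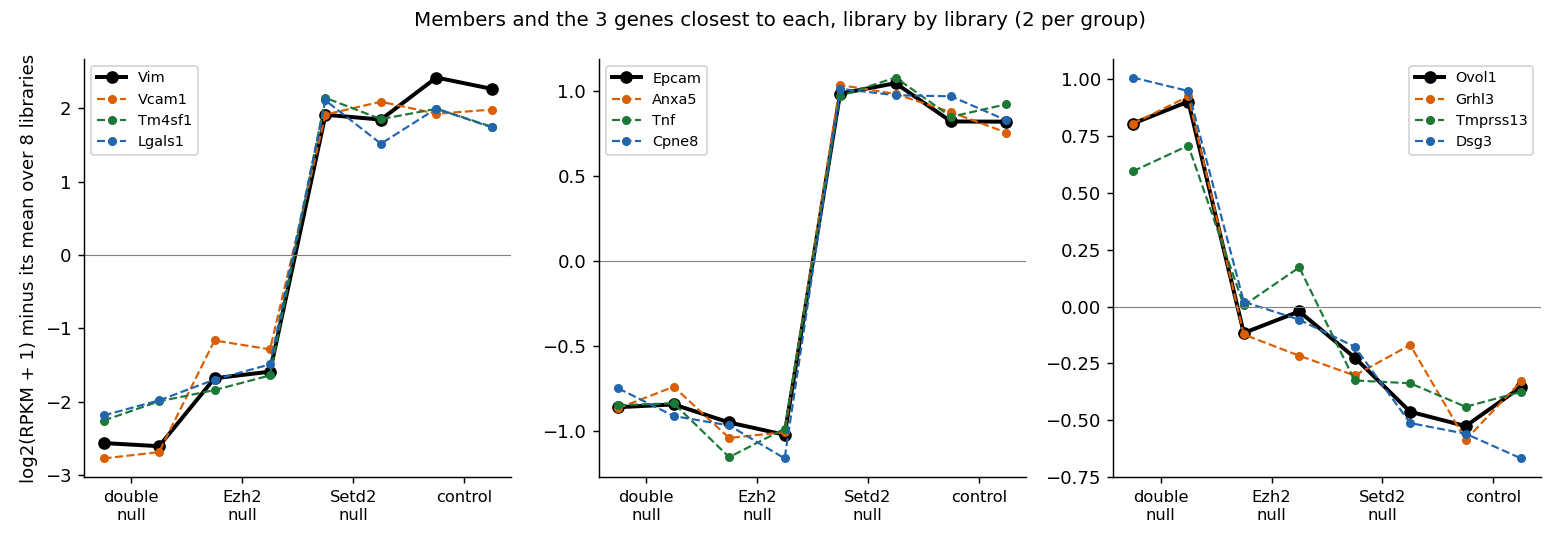
Log2(RPKM + 1) minus its mean over 8 libraries (vertical axis) for Vim, Epcam and Ovol1 (black) and the 3 genes closest to each (dashed), in the 2 libraries of each group. Vim and Epcam step down in both Ezh2-deleted groups and Ovol1 is highest in double null libraries.

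The K735R allele was compared with wild-type Ezh2 by edgeR's quasi-likelihood test on counts, and 0 of 9 members tested passed, as Cdh2 had too few counts (11 and 1 in K735R, 5 and 1 in wild-type libraries). None had an unadjusted p under 0.05, and DESeq2 and limma called 0 members too. Of 13203 genes tested, 0% were called higher and 0.00757% lower, and the medians were 0.07 over members and -0.01 over all genes. Levels are given as CPM, the count scaled by the library's total times its TMM factor and not by gene length.

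Vim had 12.4 and 18.8 CPM in K735R, against 5.24 and 24.1 CPM in wild-type organoids, a log2 difference of 0.09 ± 0.73 (SE, edgeR adjusted p = 0.984). Epcam had 902.8 and 948.9 CPM in K735R, against 515.2 and 955.0 CPM in wild-type organoids (0.33 ± 0.31, adjusted p = 0.791). Cdh1 had 1584 and 1573 CPM in K735R, against 1217 and 1745 CPM in wild-type organoids (0.09 ± 0.20, adjusted p = 0.924). In all 3 genes both K735R libraries lay between the 2 wild-type libraries. That held for 5 of the 9 members tested and for 23.2% of all genes tested, Zeb2 and Snai2 being the others.

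Zeb2 had 0.670 and 1.07 CPM in K735R, against 0.133 and 2.61 CPM in wild-type organoids (-0.67 ± 1.25, edgeR adjusted p = 0.908), and Zeb1 had 1.47 and 2.18 CPM in K735R, against 1.67 and 5.71 CPM in wild-type organoids (-1.02 ± 0.67, adjusted p = 0.682). Snai2 had 35.9 and 30.2 CPM in K735R, against 54.0 and 24.6 CPM in wild-type organoids (-0.25, adjusted p = 0.887). Wild-type library 2 thus had more Vim, Epcam, Cdh1, Zeb1 and Zeb2 and less Snai2 and Grhl2 than wild-type library 1. The higher wild-type library exceeded the lower 19.6-fold for Zeb2, 4.60-fold for Vim and 1.85-fold for Epcam, with a median of 1.17 over all genes tested. Basal markers moved with this split, at 10900 CPM in wild-type library 1 and 6600 CPM in wild-type library 2, and luminal markers summed to 2880 and 5130 CPM. Their part in it was not tested.

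Ovol1 and Esrp1 varied least between the wild-type libraries. Ovol1 had 9.64 and 11.7 CPM in K735R, against 7.54 and 7.94 CPM in wild-type organoids (0.46 ± 0.20, edgeR adjusted p = 0.581), without overlap. Esrp1 had 217.5 and 218.6 CPM in K735R, against 208.1 and 208.6 CPM in wild-type organoids (0.07 ± 0.08, adjusted p = 0.857). Grhl2 had 128.7 and 117.0 CPM in K735R, against 162.4 and 123.4 CPM in wild-type organoids (-0.22, adjusted p = 0.713).

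Differences and calls in K735R moved with the wild-type library that was left out. Such a refit also loses the spread of the wild-type pair, and the part of each was not tested. Without wild-type library 2, the lone wild-type library was assumed to vary like the K735R pair. Vim (log2 difference 1.59), Epcam (0.86) and Cdh1 (0.39) were then higher in K735R, and Snai2 (-0.70) and Grhl2 (-0.39) lower. Without wild-type library 1, Vim (-0.62), Epcam (-0.05), Cdh1 (-0.15) and Snai2 (0.43) changed sign. Of the 6 lists, 0 of 70 genes tested were called in K735R against wild-type organoids by edgeR (8 at an unadjusted p under 0.05). DESeq2, which also called more of all genes than edgeR (given below), called 2 of 76, both lower.

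**Figure D5:**
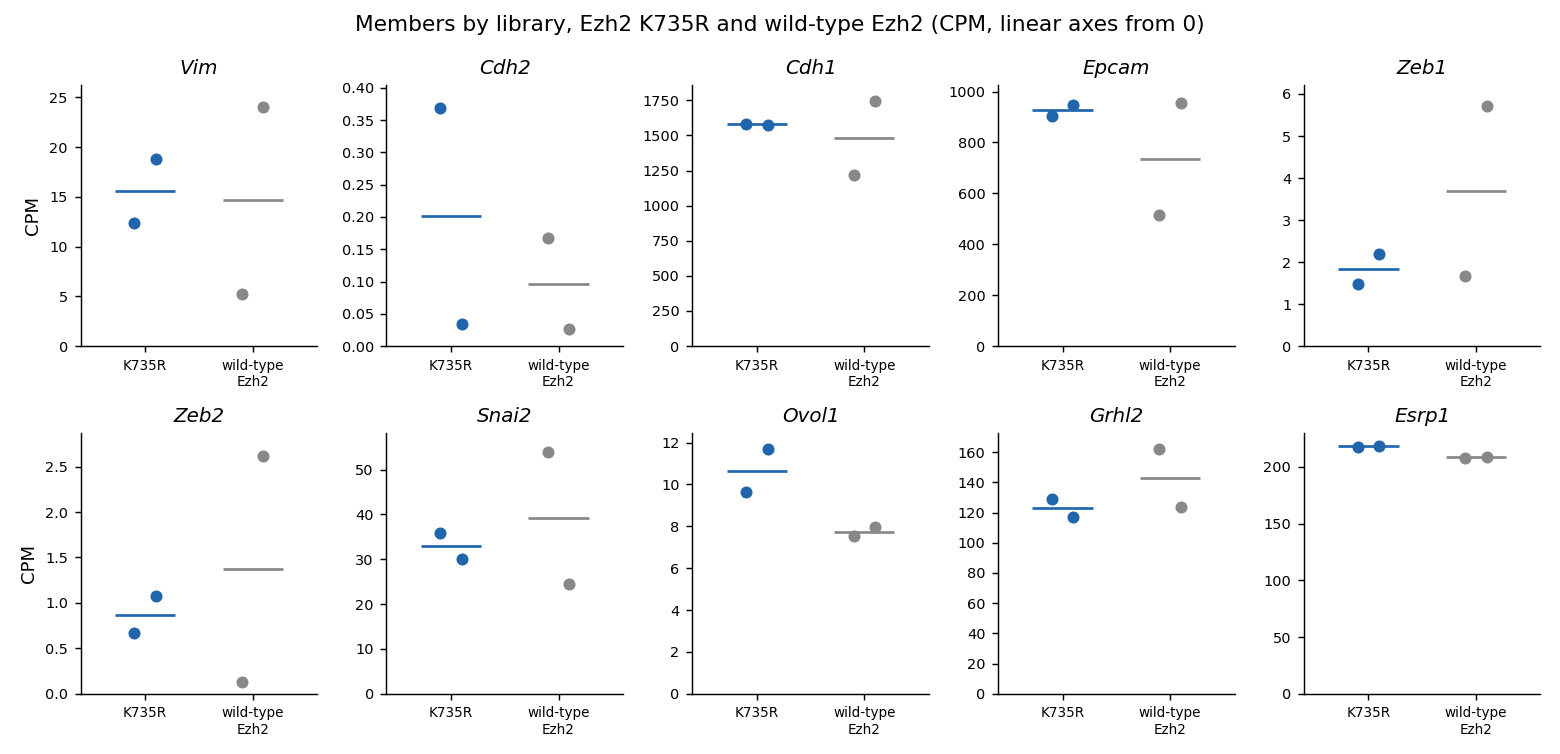
CPM of each member (vertical axes, linear from 0) in the 2 libraries (points) and their mean (line) of Ezh2 K735R and wild-type Ezh2 organoids. For Vim, Epcam and Cdh1 both K735R points fall between the 2 wild-type points.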

How the data were processed

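RNA of mouse prostate organoid cells was sequenced as paired reads of 150 bases. The authors deposited a table of RPKM values for 8 libraries and a table of read counts for 4, per the file headers, and the count unit was taken from the values. Per the submitters' processing notes the build was mm10 and Bowtie, RSEM, BWA and SICER were named, of which Bowtie and RSEM were for the count table. Their versions, the annotation, the strand setting and the handling of shared reads were not stated in the labels or headers. The 3 chromatin samples were not analysed here, and an alteration shared within each table and the values of some listed genes are not reported here.

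Libraries were grouped by their titles. RPKM values were compared with limma 3.58.1 (R 4.3.3) on log2(RPKM + 1), in 1 fit of 4 groups, for the 11338 genes averaging 1 RPKM or more, with trend and robust moderation. Such differences understate changes of low genes. Counts were tested with edgeR 4.0.16 (quasi-likelihood, TMM, filterByExpr, 13203 genes). All p-values were two-sided and adjusted by Benjamini-Hochberg over all genes tested, and calls were made at 0.05. With 2 libraries a group, p-values measure the spread between libraries, of which those in the RPKM table were pools, and the labels do not say that libraries came from separate cultures. Low RPKM values stepped by whole reads: 13746 of 13748 genes above 0 in all 8 libraries (99.99%) gave whole numbers within 0.01 reads, so edgeR was also run on these reads, leaving out 46 genes.

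Alternatives were quantile and median-ratio scaling, other filters, a pseudocount of 0.1, fits restricted to the compared groups, a replicate block, DESeq2 1.42.0, limma on log2 CPM, and each library left out. The members and gene lists were chosen with earlier results of these data known. Named were all members, the 4 genes of each list with the smallest p in each comparison, the 3 genes closest in profile to each member with a standard deviation of at least 0.5, and Setd2 and Ezh2. The scripts were tested on simulated data. Symbols turned into dates by a spreadsheet (27 and 19) were named by Entrez identifier.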

Additional observations from a re-analysis of the deposited data

How the results depend on the processing

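Of 560 refits of a member, 501 kept direction and side of the threshold, 21 lost a call, 15 gained one and 23 changed sign. Under quantile normalization 50.1% of calls in Ezh2 null against control organoids were higher, against 63.8% as deposited (49.8% under median-ratio scaling), and 48.3% against 64.7% in double null against Setd2 null organoids (49.4%). Genes called in Setd2 null against control organoids numbered 121, and 56 under quantile normalization, 67 with no filter, 62 at a mean of 5 RPKM, 15 with only those groups, 231 with the replicate block and 24 to 132 without 1 library. In double null against Ezh2 null organoids 736 became 465 at 5 RPKM, 399 with only those groups and 361 to 472 without 1 library. The interaction's 294 became 146, 469 with the replicate block and 142 to 278 without 1 library. K735R had 1, and 285 with DESeq2, 2 with limma, 4 with the block and 0 to 1595 without 1 library. Members called in Ezh2 null against control organoids numbered 5, and 3 under median-ratio scaling and 2 to 3 without 1 library. In double null against Ezh2 null organoids 2 became 1 at 5 RPKM, as Ovol1 did not enter. In the interaction 0 became 1 with the block (Ovol1, adjusted p = 0.0479), and in K735R the calls of members depended on the library left out.

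Some values changed sign. In Setd2 null against control organoids without Setd2 null library 1, Cdh1 had 0.030 and Ovol1 -0.023 (leaving out 1 library gave -0.26 to 0.030 and -0.023 to 0.21). In Ezh2 null against control organoids, Snai2 had -0.0896 by quantile normalization, -0.0897 by median-ratio scaling, -0.0869 on recovered reads, -0.023 without control 2 and -0.078 without Ezh2 null 1 (-0.078 to 0.23 over libraries left out), and Esrp1 -0.041 and -0.032 by median-ratio scaling and on reads. In double null against Setd2 null organoids Esrp1 had -0.00083 by median-ratio scaling. In double null against Ezh2 null organoids Cdh1 had -0.056 by quantile normalization, -0.020 without Ezh2 null 1 and -0.015 without double null 2 (-0.020 to 0.10 over libraries left out). The interaction of Zeb1 was -0.55 on reads. In K735R, Vim had -0.62 without wild-type 1 and -0.24 without K735R 2, Cdh1 -0.15, Epcam -0.046 and Snai2 0.43 without wild-type 1, Zeb1 0.14 and Zeb2 2.68 without wild-type 2, and Zeb2 0.41 with limma and 0.14 with the block. Over libraries left out these K735R values ranged from -0.62 to 1.59 (Vim), -0.15 to 0.39 (Cdh1), -0.046 to 0.86 (Epcam), -1.64 to 0.14 (Zeb1), -1.58 to 2.68 (Zeb2) and -0.70 to 0.43 (Snai2). The cause was not tested.

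Replicate numbers shared no source in the labels. Deviations of same-numbered libraries correlated at 0.933 between Ezh2 null and double null, at 0.105 to 0.358 between the other groups of the RPKM table and at 0.095 in the count table, across genes. The block also called Cdh1 in double null against Setd2 null organoids (-0.35, adjusted p = 0.027). Depth limits Cdh2, Zeb1 and Zeb2, which had at most 60 reads in any library of the RPKM table.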
